A study of Mus musculus with 2 samples.

Results

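MHC class II-high myeloid cells were taken from droplet single-cell libraries made from mouse hippocampus as barcodes in which all of H2-Aa, H2-Ab1, H2-Eb1 and Cd74 were detected with at least 10 unique molecular identifiers (UMIs, each a counted RNA molecule) between them. A member also had at least 2 detected of the myeloid genes Tyrobp, Fcer1g, Csf1r, Lyz2 and Ms4a7, and no UMI of the lymphoid genes Cd79a, Ms4a1 and Cd3e. This left 148 of 28586 barcodes, of which 60 were of the EMF_AuNPs library and 88 of the Control library. The EMF_AuNPs library came from male C57BL/6 mice whose hippocampus received gold nanoparticles and which then spent 3 weeks in an electromagnetic field between a pair of Helmholtz coils. The Control library came from male C57BL/6 mice given saline. Both groups are labelled as 6 months old, although the sample titles speak of an aged brain. The tissue was dissociated with papain and run on the 10x droplet platform. There was 1 library per group, the number of animals in each is not given in the sources used here, and the protocol does not make plain whether the saline mice also sat between the coils. The title of the study names neurogenesis in the living brain, and the labels give no question about immune cells.

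MHC class II molecules are pairs of an alpha and a beta chain that show peptides from engulfed proteins to CD4 T cells. In mice of this strain the chain pair is made from H2-Aa and H2-Ab1, while H2-Eb1 lacks its usual partner because H2-Ea is a defective gene there. Cd74, the invariant chain, fills the groove until lysosomal proteases trim it and H2-DM exchanges the remnant for a peptide. In the healthy brain class II is known mainly from dendritic cells and some macrophages of the meninges, perivascular spaces and choroid plexus, and from few microglia. Transcription of these genes turns on the coactivator CIITA, which is recruited by RFX and NF-Y at paired X and Y boxes upstream of the start site.

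Promoters of class II genes are shown because H2-Aa and H2-Eb1, which are among the genes that chose these cells, hold letters of that pair of boxes. H2-Ab1 had no promoter window in the set used here, and Cd74 was not looked up. Of 25 class II, accessory and class II transcription factor genes looked up in the RefSeq promoter windows (GRCm38.p6, 250 bases before to 50 after each start), 19 had a window. The X box was searched as GCAAC and the Y box as TGATTGG, on both strands, and the pair as GCAAC followed after 10 to 30 bases by TGATTGG. The range of the gap was set after the windows had been read. The pair was found in 65 of 32851 windows (0.198%), while GCAAC was in 35.2% of windows and TGATTGG in 7.82%. It was present at H2-Aa (26 bases between the motifs), H2-Eb1 (25), H2-Oa (26), H2-Ob (23) and H2-Eb2 (25). H2-DMb1 and H2-DMb2 held TGATTGG without the pair, and the windows of H2-DMa held neither the pair nor TGATTGG. The 110 bases before the start of 4 of these genes, with the 2 motifs in capitals, are as follows.
H2-Aa, chr17:34287824-34287933, minus strand: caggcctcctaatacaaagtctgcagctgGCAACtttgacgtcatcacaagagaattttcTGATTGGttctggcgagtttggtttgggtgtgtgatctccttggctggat
H2-Eb1, chr17:34305757-34305866, plus strand: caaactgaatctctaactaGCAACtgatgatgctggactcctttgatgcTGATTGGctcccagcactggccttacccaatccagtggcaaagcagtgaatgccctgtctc
H2-Oa, chr17:34092269-34092378, plus strand: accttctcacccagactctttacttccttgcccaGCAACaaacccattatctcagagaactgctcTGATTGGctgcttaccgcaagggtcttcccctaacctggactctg
H2-Ob, chr17:34238795-34238904, plus strand: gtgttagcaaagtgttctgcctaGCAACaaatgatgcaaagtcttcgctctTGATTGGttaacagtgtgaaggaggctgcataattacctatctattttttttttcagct
A match describes the letters of the window and is not evidence of binding in these cells.

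The members made up 0.857% of EMF_AuNPs barcodes (60 of 7003, 95% interval 0.654% to 1.10%) and 0.408% of Control barcodes (88 of 21583, 0.327% to 0.502%). The difference was 0.449 percentage points (0.237 to 0.705), and the share in EMF_AuNPs was 2.10 times that in Control. These and all later intervals cover counting error only. With 1 library per group there is no replicate check, and no difference between the libraries was tested. The EMF_AuNPs library was deeper per barcode, with a median of 2310 UMIs (19544686 in all) against 1904 in Control (51091452 in all). With each barcode thinned to 1000 UMIs the ratio of shares was 2.14. Among barcodes with at least 2 of the 5 myeloid genes, members were 2.38% of 2526 in EMF_AuNPs and 1.31% of 6725 in Control, a ratio of 1.81. The 2 libraries shared 38 barcode sequences, and 0 of these were members.

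All 4 class II genes were detected in 70 EMF_AuNPs and 166 Control barcodes, out of 520 and 999 with any of them. Presence of a lymphoid gene alone removed 3 EMF_AuNPs and 14 Control barcodes, each through Cd79a or Ms4a1, which mark B cells, and 0 through Cd3e of T cells. Too few myeloid genes alone removed 1 EMF_AuNPs and 8 Control barcodes, and both together 5 and 53. In all 60 of 69 EMF_AuNPs and 88 of 163 Control barcodes with all 4 genes and at least 10 UMIs were kept. A further 5 EMF_AuNPs and 8 Control barcodes met the other steps but lacked at least 1 class II gene. Just inside the threshold, 5 EMF_AuNPs and 13 Control members had 10 to 19 class II UMIs, with a median of 14 in each library. Just outside it, 1 EMF_AuNPs barcode had 6 UMIs and 2 Control barcodes had a median of 9.

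The 4 class II genes chose the members, so their levels are a description. Per member they summed to 11 UMIs at the lowest, 132 at the median and 538 at the highest in EMF_AuNPs, and to 12, 89.5 and 419 in Control. As a share of the member's own UMIs this was 0.0777%, 4.44% and 10.3% in EMF_AuNPs, and 0.0700%, 3.64% and 11.6% in Control. The libraries overlapped over nearly the whole range. At least 1% was reached by 49 of 60 EMF_AuNPs members and by 71 of 88 Control members. The members' UMIs totalled 252311 in EMF_AuNPs (median 3315 per member, 943 to 21890) and 361748 in Control (median 2912, 634 to 21440).

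**Figure D1:**
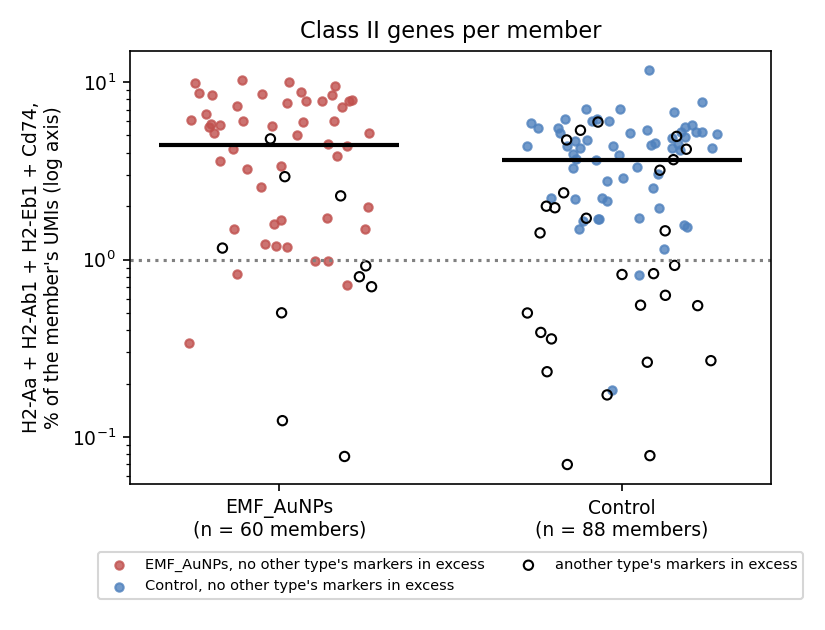
Share of each member's UMIs that fell on H2-Aa, H2-Ab1, H2-Eb1 and Cd74 (log axis, percent), 1 point per member, with the bar at the median and the dotted line at 1%. The medians are 4.44% in EMF_AuNPs and 3.64% in Control, and open circles, members with another cell type's markers in excess, make up most of the points under 1%.

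Summed over members and scaled to CPM (UMI counts brought to the same total in every set of barcodes), H2-Aa was at 6464 CPM in EMF_AuNPs and 3970 CPM in Control. H2-Ab1 was at 5672 and 4108 CPM, H2-Eb1 at 5890 and 3621 CPM, and Cd74 at 18900 and 13350 CPM, in the same order. Of the myeloid genes of the rule, Lyz2, the lysozyme of macrophages and neutrophils, differed most, with 4122 CPM in EMF_AuNPs and 1283 CPM in Control. It was detected in 55 of 60 EMF_AuNPs and 71 of 88 Control members. Outside the members Lyz2 was higher in EMF_AuNPs too, at 301 against 108 CPM in microglia and 6105 against 2694 CPM in border macrophages. Tyrobp and Fcer1g, signalling adaptors of myeloid receptors, were detected in 60 and 59 EMF_AuNPs and in 88 and 85 Control members. Csf1r, the receptor for the macrophage growth factor CSF1, was detected in 53 EMF_AuNPs and 71 Control members, and Ms4a7, a membrane protein of macrophages other than microglia, in 34 and 46.

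Class II was set against barcode sets chosen outside the members by marker count, called gates here: 227 EMF_AuNPs and 1452 Control microglia, 22 and 59 border macrophages (those of meninges and vessels), 112 and 1252 endothelial cells, and 1 and 19 B cells. H2-Aa was at 13.7 CPM in EMF_AuNPs and 4.38 CPM in Control microglia, and at 5.10 and 2.60 CPM in endothelial barcodes, which should lack the gene. In the 19 Control B cell barcodes H2-Aa was at 2790 CPM (2179 to 3519) and Cd74 at 12690 CPM. The B cell level is thus of the order of the Control members' own 3970 CPM of H2-Aa. After thinning to 1000 UMIs, an H2-Aa UMI was present in 53 of 59 EMF_AuNPs members (89.8%) and 72 of 82 Control members (87.8%). In microglia it was present in 1 of 105 EMF_AuNPs barcodes (0.952%) and 6 of 1171 Control barcodes (0.512%). In endothelial barcodes it was present in 0 of 80 in EMF_AuNPs, which allows a share of up to 3.75%, and 2 of 913 in Control (0.219%). At these counts the microglial H2-Aa shares were not separable from the endothelial ones. Cd74 was higher in microglia, at 130 CPM (92.0 to 178) in EMF_AuNPs and 49.2 CPM (40.1 to 59.8) in Control. Endothelial barcodes had 25.5 CPM (8.29 to 59.6) and 18.7 CPM (13.1 to 25.9) of Cd74. For H2-Aa, H2-Ab1 and H2-Eb1 the intervals of microglia and endothelial barcodes overlapped in both libraries. The gates leave out the members, so a microglial barcode that met the rule could not count among microglia. These shares thus do not tell how often microglia hold class II.

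**Figure D2:**
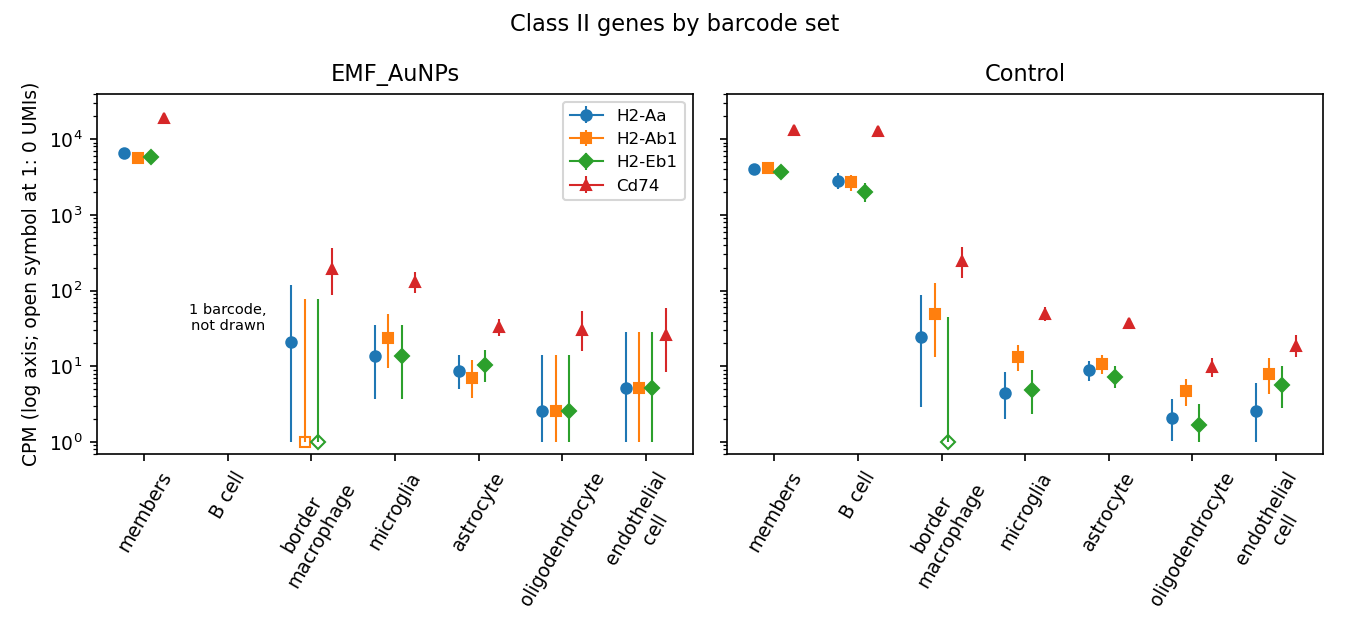
Levels of the 4 class II genes (CPM, log axis) in members and in 6 gates of EMF_AuNPs (left) and Control (right), with exact 95% Poisson intervals. Interval ends under 1 CPM are drawn at 1 CPM, open symbols stand for 0 UMIs, and the single EMF_AuNPs B cell barcode is not drawn. H2-Aa reaches 6464 CPM in EMF_AuNPs and 3970 CPM in Control members, and 13.7 and 4.38 CPM in microglia.

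Genes outside the rule matched the label of myeloid cells. All 10 of a list of leukocyte genes were detected in both libraries, and summed to 6718 CPM in EMF_AuNPs and 5645 CPM in Control members, against 546 and 350 CPM in endothelial barcodes. Ptprc, which encodes the leukocyte antigen CD45, was at 222 CPM in EMF_AuNPs and 191 CPM in Control members. Spi1, the myeloid transcription factor PU.1, was at 361 and 221 CPM, and Ctss, the cathepsin that trims the invariant chain, at 2168 and 1570 CPM. B and T lineage genes were close to nil: Pax5, Mzb1, Jchain, Cd3d and Cd3g had 0 UMIs in members of either library. The neutrophil genes S100a9 and Ly6g were also at 0. Cd79b of B cells had 4 UMIs in each library. In sum the neutrophil genes reached 75.3 CPM in EMF_AuNPs and 52.5 CPM in Control members (3 and 2 of 10 detected), and the monocyte genes 317 and 235 CPM (9 and 5 of 12 detected).

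Most dendritic cell genes were sparse. The 9 conventional dendritic cell genes summed to 630 CPM in EMF_AuNPs and 390 CPM in Control members (8 and 9 detected). Border macrophages held 444 and 206 CPM of them and microglia 544 and 649 CPM. The 9 cDC2 genes summed to 357 CPM in EMF_AuNPs and 323 CPM in Control members (8 and 9 detected, median member at 0 in both), against 613 and 546 CPM in border macrophages, and the 9 cDC1 genes to 305 and 174 CPM. Flt3, the growth factor receptor of dendritic cells, had 2 UMIs in EMF_AuNPs and 1 in Control members, and Zbtb46, a transcription factor of conventional dendritic cells, had 0 and 2. Xcr1 and Clec9a of type 1 conventional dendritic cells (cDC1) had 5 and 6 UMIs in EMF_AuNPs, against 0 and 2 in Control. Mgl2, a lectin of type 2 cells (cDC2) and of some macrophages, was detected in 17 EMF_AuNPs members at 198 CPM and in 21 Control members at 205 CPM. Ccr7, Il4i1, Apol7c and Il12b, which mark mature dendritic cells, were at 0 in members of both libraries. Of the monocyte genes, Chil3 was at 0 in both libraries, while Ccr2, the receptor that brings monocytes out of the blood, was detected in 15 of 60 EMF_AuNPs and 12 of 88 Control members.

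Macrophage genes were more widely present. Mrc1, the mannose receptor, or Pf4, a chemokine of border macrophages, was detected in 38 of 60 EMF_AuNPs members (63.3%) and in 41 of 88 Control members (46.6%). Mrc1 was at 301 CPM in EMF_AuNPs and 199 CPM in Control members, and at 993 and 1736 CPM in the border macrophage gate. Pf4 was at 967 CPM in EMF_AuNPs and 373 CPM in Control members, and at 2978 and 4381 CPM in border macrophages. In sum the 11 border genes reached 1748 CPM in EMF_AuNPs and 802 CPM in Control members (11 and 9 detected), and 8935 and 10360 CPM in the border gate. The 11 microglial genes reached 3246 CPM in EMF_AuNPs and 2247 CPM in Control members, and 18920 and 16460 CPM in the microglia gate. P2ry12, a purine receptor of resting microglia, was at 111 CPM in EMF_AuNPs and 63.6 CPM in Control members, while microglia had 1180 and 923 CPM. Tmem119, a microglial membrane protein, was at 214 and 194 CPM in members and at 1143 and 1475 CPM in microglia. Both lists thus lay several-fold under the level of their own gate, and both gates were themselves chosen on those genes.

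**Figure D3:**
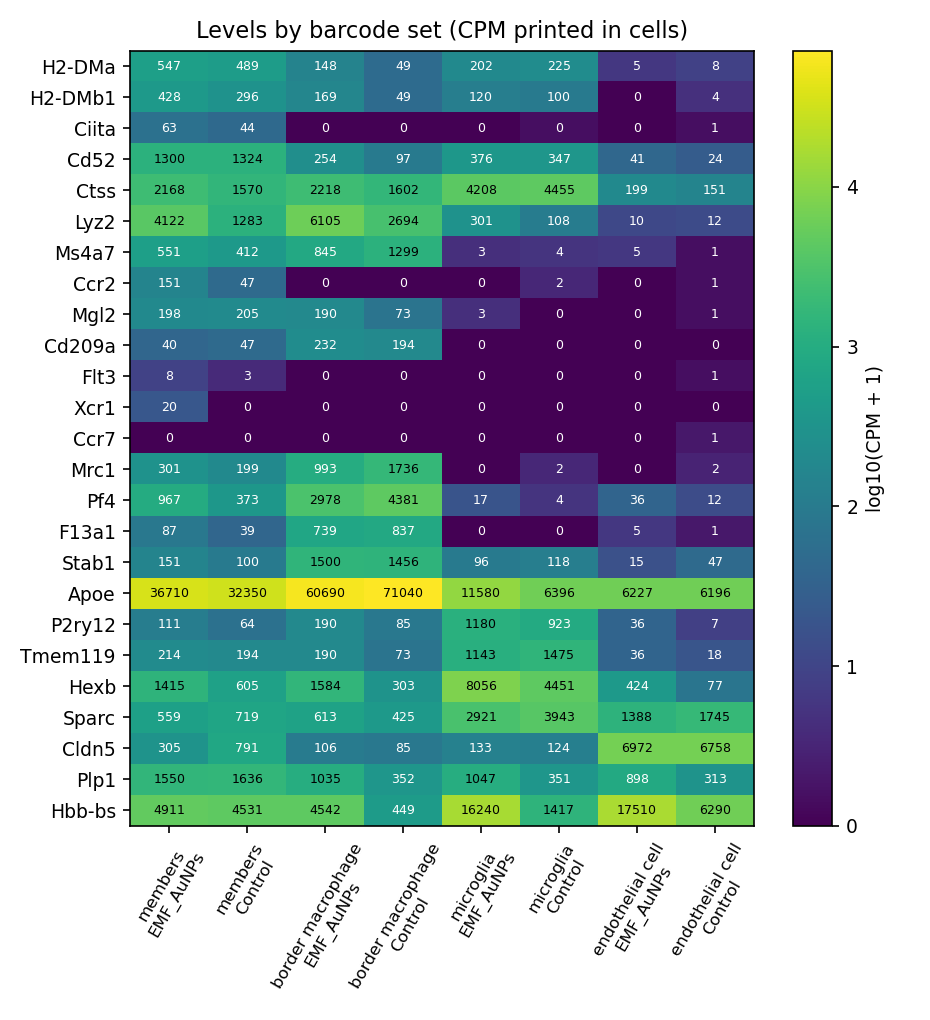
Levels of 25 genes (CPM in each cell, colour on a log10 scale of CPM + 1) in members and in the border macrophage, microglia and endothelial gates, EMF_AuNPs left of Control in each pair. Members hold 111 and 63.6 CPM of P2ry12, against 1180 and 923 CPM in microglia, and 301 and 199 CPM of Mrc1, against 993 and 1736 CPM in border macrophages.

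Each member was placed under 1 of 7 identity lists where at least 3 of its markers were detected and more than of any other list. Microglial markers led in 42 of 60 EMF_AuNPs members (70.0%, 56.8% to 81.2%) and in 38 of 88 Control members (43.2%, 32.7% to 54.2%). Border macrophage markers led in 8 EMF_AuNPs and 7 Control members, cDC2 markers in 2 and 4, and cDC1 markers in 1 and 0. Undecided were 7 EMF_AuNPs and 39 Control members. The mature dendritic, monocyte and plasmacytoid lists led in 0 members of either library. Microglial markers were also found in endothelial barcodes. Among endothelial barcodes taken by marker excess, 48.7% of 980 in EMF_AuNPs and 11.4% of 2938 in Control held at least 3 microglial markers, at median depths of 2278 and 1652 UMIs. In members that share was 90.0% in EMF_AuNPs (54 of 60) and 53.4% in Control (47 of 88). The source of these markers, be it free RNA, doublets or another, was not tested, nor was their part in the members' calls. Thinned to 1000 UMIs, microglial calls were 22.03% of EMF_AuNPs and 18.3% of Control members.

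At least 3 border markers were found in 0 EMF_AuNPs and 1 Control of these endothelial barcodes, and at least 3 cDC2 markers in 0 of either. Barcodes whose border macrophage or microglial markers were in larger excess were left out of the endothelial set. The border and microglial counts there thus follow partly from that choice. With the microglial list set aside, a count added after the data were seen, 20 EMF_AuNPs members (33.3%, 21.7% to 46.7%) and 15 Control members (17.0%, 9.87% to 26.6%) were border macrophage-like. On the same count 2 EMF_AuNPs and 7 Control members were cDC2-like and 1 and 2 were cDC1-like. The cDC2-like cells had little Apoe, the lipid carrier that macrophages and astrocytes make in quantity. Apoe took 0.114% and 0.388% of the UMIs of the 2 EMF_AuNPs cells, and 0.109% to 0.747% in the 7 Control cells, with a median of 0.152%. In border macrophage-like members the median was 5.38% in EMF_AuNPs (1.71% to 7.98%) and 6.07% in Control (1.97% to 9.41%). The 2 kinds did not overlap in Apoe in either library, and Apoe was in none of the identity lists, although it was picked for this view after its values were seen. Class II took 6.00% and 6.05% of UMIs in the EMF_AuNPs and 3.63% to 5.59% in the Control cDC2-like cells, against a median of 2.26% (0.124% to 8.76%) in EMF_AuNPs and 1.70% (0.817% to 4.43%) in Control border macrophage-like cells. These ranges overlapped, and class II is a value that the rule used.

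**Figure D4:**
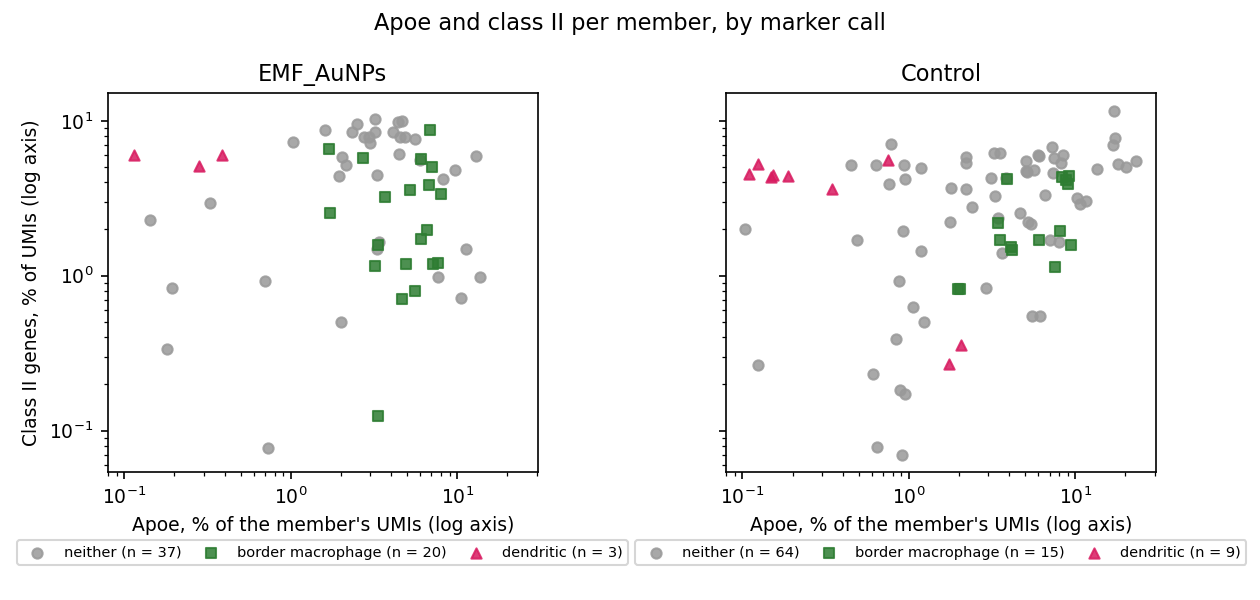
Share of a member's UMIs on Apoe (x, percent, log axis) against its share on the 4 class II genes (y, percent, log axis), EMF_AuNPs left and Control right, coloured by marker call with the microglial list set aside. Dendritic calls (cDC1 and cDC2) number 3 in EMF_AuNPs and 9 in Control and border macrophage calls 20 and 15, and the cDC2-like cells have at most 0.388% Apoe in EMF_AuNPs and 0.747% in Control.

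Summed over the 3 EMF_AuNPs and 9 Control members with a dendritic call, Ciita was at 334 CPM in EMF_AuNPs and 77.0 CPM in Control (6 and 5 UMIs), Cd52, a small glycoprotein of leukocytes, at 3672 and 1986 CPM, and Lyz2 at 334 and 138 CPM. Border macrophage-like members had 1 Ciita UMI in EMF_AuNPs and 3 in Control, 584 and 650 CPM of Cd52 and 5914 and 2294 CPM of Lyz2. Lyz2 belonged to the rule that chose the cells, but not to either of these lists. The dendritic calls rest on few cells. The 2 Control cells with cDC1 calls had 3 cDC1 markers each and markers of another cell type in excess. Their class II shares were 0.269% and 0.357%. The Control dendritic sums above include these 2 cells, and their part in those levels was not tested.

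Part of the members carried RNA of a cell type other than a myeloid one. Markers of another type stood in excess (at least 5 UMIs, and over 2 times the share those markers take of the whole library) in 10 of 60 EMF_AuNPs members (16.7%) and 28 of 88 Control members (31.8%), a difference of -15.2 points (-27.8 to -0.781). Endothelial markers did so in 1 EMF_AuNPs and 8 Control members, neuronal markers in 1 and 5, choroid plexus markers in 0 and 3, oligodendrocyte markers in 2 and 4, and astrocyte markers in 3 and 4. T and NK cell, B cell and neutrophil markers did so in 0 of either. Members with such markers had a median class II share of 0.860% in EMF_AuNPs and 0.880% in Control, against 5.39% and 4.35% in the others. The doublet caller marked 0 EMF_AuNPs and 14 Control members, out of 117 and 2470 barcodes called (1.67% and 11.4%, against 5.60% and 17.3% expected from the number of barcodes). Fewer doublets than expected were called, above all in EMF_AuNPs, so 0 calls there does not show that its members hold none, and values without doublet calls drop Control members only. Ttr, the transthyretin of the choroid plexus, was at 7467 CPM in EMF_AuNPs and 68850 CPM in Control members, and 3 Control members held 91.6% of its 24905 UMIs. The haemoglobin gene Hbb-bs was detected in 60 of 60 EMF_AuNPs and 52 of 88 Control members. Members with another type's markers in excess are called mixed below, and values without them are called unmixed.

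Between the libraries, 2889 genes outside the rule had at least 30 UMIs over all members. At 1.5-fold or more, 524 of them (18.1%) were higher and 465 (16.1%) lower in EMF_AuNPs than in Control members, and the median log2 ratio was 0.05 (1 CPM added to both). Without the 14 doublet calls, 549 of 2276 genes were higher and 246 lower, with a median of 0.13. Without mixed members, 251 of 1504 were higher and 239 lower. That count keeps the minimum of 30 UMIs over unmixed members, while unmixed values of genes and lists below also cover genes under it. Counting error enters these counts, which have no replicate check.

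Identity genes depended on the mixed members. The 5 tested border macrophage genes were all higher in EMF_AuNPs members, against 18.1% of all genes. Their median log2 ratio was 1.12, and 0.10 without the members that hold another type's markers. Pf4 stood at 1.37, and 0.71 without them, and Mrc1 at 0.60 and -0.10. Of the 8 tested microglial genes 4 were higher and 0 lower, against 18.1% and 16.1% of all genes, with medians of 0.48 and 0.17.

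Among genes that met the naming rule, chemokines and their receptors led on the higher side. Ccl7, a chemokine that attracts monocytes, had 97 UMIs in 14 EMF_AuNPs members (384 CPM) and 18 UMIs in 11 Control members (49.8 CPM), a log2 ratio of 2.92 (2.21 to 3.76) and 2.46 unmixed. Ccr1, a receptor for Ccl3 and Ccl7 on myeloid cells, had 31 UMIs in 17 EMF_AuNPs and 7 UMIs in 6 Control members, a log2 ratio of 2.61 (1.46 to 4.10) and 1.80 unmixed. Ccl2, the main ligand of Ccr2, had 41 UMIs in 13 EMF_AuNPs and 15 in 9 Control members, a log2 ratio of 1.94 (1.09 to 2.93) and 1.30 unmixed. Ccl7 was also at 613 CPM in EMF_AuNPs and 243 CPM in Control border macrophages, and its level in microglia rested on 2 UMIs in each library. The members that were border macrophage-like were 20 of 60 in EMF_AuNPs and 15 of 88 in Control, and their part in these ratios was not tested.

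Among other genes higher in EMF_AuNPs was Lyz1, a lysozyme gene nearly identical to Lyz2. Lyz1 had 403 UMIs in EMF_AuNPs and 108 in Control members (log2 ratio 2.42, 2.11 to 2.74), and reads shared between the 2 lysozyme genes could not be separated here. Lyz1 was higher outside the members too, with a log2 ratio of 1.87 (1.23 to 2.56) in microglia. In border macrophages it was at 2049 CPM in EMF_AuNPs and 655 CPM in Control. Eif4a2, a translation initiation helicase, stood at 2.13 and Cd48, an adhesion protein of leukocytes, at 2.11.

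Genes lower in EMF_AuNPs rested on few EMF_AuNPs UMIs. The 8 endothelial genes, all detected in both libraries, summed to 1292 CPM in EMF_AuNPs and 2482 CPM in Control members, and the choroid plexus genes to 7518 and 69370 CPM. Their part in the lower genes was not tested. Chd3, a chromatin remodelling helicase, had 7 UMIs in 5 EMF_AuNPs and 63 UMIs in 30 Control members, a log2 ratio of -2.61 (-4.02 to -1.52) and -2.60 unmixed. Nfe2l1, a transcription factor of proteasome genes, had 11 and 62 UMIs (-1.95) and was at -1.46 unmixed. Elovl7, a fatty acid elongase, had 4 UMIs in 4 EMF_AuNPs and 46 UMIs in 14 Control members (-2.93, and -2.08 unmixed). Phactr2 at -2.53 and Tmem238 at -2.11 stood at -0.98 and -0.40 unmixed. Ppp1r16b, Nudcd3 and Cgnl1, a junction protein of endothelium and epithelium, were at -2.55, -2.01 and -1.98, and at -2.15, -1.65 and -4.18 unmixed. Each of these lower genes had fewer than 30 UMIs over unmixed members, so their unmixed ratios fall under the minimum set for genes.

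The genes that load class II molecules differed in size. Of 14 accessory and processing genes, 9 had enough UMIs, of which 5 were higher and 0 lower in EMF_AuNPs, against 18.1% and 16.1% of all genes, with a median log2 ratio of 0.97 (0.78 unmixed, 0.25 for the same genes in microglia). The median was 0.01 over 6 genes without members with at least 3 microglial markers, and 0.43 over 6 genes after thinning. Those higher were proteases and enzymes of the lysosome. Sppl2a, which cleaves the last fragment of the invariant chain from the membrane, had 31 UMIs in 26 EMF_AuNPs and 12 in 11 Control members, a log2 ratio of 1.86 (0.89 to 2.98). Lgmn, an asparagine-cleaving protease, was at 606 CPM in EMF_AuNPs and 240 CPM in Control members (1.33, 0.95 to 1.73), Ifi30, a thiol reductase, at 369 and 171 CPM (1.10), and Ctsl, cathepsin L, at 416 and 207 CPM (1.00). In microglia the log2 ratio of the libraries was 0.92 for Lgmn, 0.71 for Ctsl, 0.46 for Ifi30 and -0.21 for Sppl2a. H2-DMa and H2-DMb1, the 2 chains of the peptide exchange factor, showed less difference. H2-DMa was at 547 CPM in EMF_AuNPs and 489 CPM in Control members, a log2 ratio of 0.16 (-0.17 to 0.49) and -0.14 unmixed, and H2-DMb1 at 428 and 296 CPM, a ratio of 0.53 (0.13 to 0.93) and 0.20 unmixed. Microglia had 202 and 225 CPM of H2-DMa, and the 19 Control B cell barcodes 825 CPM. H2-Oa and H2-Ob, which modulate H2-DM and whose promoters hold the same motif pair, had 15 and 11 UMIs in EMF_AuNPs and 16 and 11 in Control. H2-DMb2, H2-Eb2 and H2-Ea-ps, the defective Ea gene of this strain, were at 0 UMIs in members of both libraries. At 0 UMIs with 252311 and 361748 members' UMIs, levels up to 11.9 CPM in EMF_AuNPs and 8.29 CPM in Control remain possible.

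Ciita, the class II coactivator, had 16 UMIs in 13 EMF_AuNPs members (63.4 CPM) and 16 UMIs in 12 Control members (44.2 CPM), a log2 ratio of 0.51 (-0.58 to 1.62). Microglia had 0 Ciita UMIs in EMF_AuNPs and 1 in Control. In EMF_AuNPs the members' level was at least 6.18-fold higher than in microglia, counting 3 UMIs as the limit of a gate with 0, and in Control the ratio was 90.8 (14.1 to 3808). Of 8 class II transcription genes it was the 1 with enough UMIs. Rfx5, the X box factor, had 0 UMIs in EMF_AuNPs and 6 in Control members.

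Class I presentation, which shows peptides from the cell's own proteins, was higher in EMF_AuNPs in 8 and lower in 0 of 11 genes, against 18.1% and 16.1% of all genes, with a median log2 ratio of 0.75 (0.49 unmixed, and 0.41 in microglia). B2m, the light chain of class I, was at 943 CPM in EMF_AuNPs and 506 CPM in Control members (0.90, 0.61 to 1.19), and H2-K1 at 1130 and 630 CPM (0.84, 0.59 to 1.10). H2-T23, a non-classical class I gene, was at 107 and 38.7 CPM (1.44). In microglia the log2 ratio of the libraries was 1.05 (0.81 to 1.29) for H2-K1, 0.87 for H2-T23 and 0.17 for B2m. The class I heavy chain genes are near-identical copies, so reads may have been split among them. In costimulation, 1 of 5 genes was higher and 0 lower, near the 18.1% and 16.1% of all genes, the median was 0.18, and the unmixed median was -0.34. The higher gene was Sirpa, an inhibitory receptor that binds CD47, at 226 CPM in EMF_AuNPs and 99.5 CPM in Control members (1.18, 0.56 to 1.83). Cd86, which gives T cells their second signal, had 15 and 19 UMIs (0.18, and -0.83 unmixed), while Cd80 had 0 and 1 and Cd40 had 3 in each.

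Lysosomal and phagocytic genes lay mostly on the higher side. Of 20 with enough UMIs, 17 were higher and 0 lower in EMF_AuNPs, against 18.1% and 16.1% of all genes, and the median log2 ratio was 0.91 (0.69 unmixed, 0.32 in microglia). Ctsc, cathepsin C, had 206 UMIs in 51 EMF_AuNPs members (816 CPM) and 87 UMIs in 44 Control members (240 CPM), a log2 ratio of 1.76 (1.40 to 2.14). Hexa, a hexosaminidase subunit, was at 519 CPM in EMF_AuNPs and 227 CPM in Control members (1.19), and Fcgr3, an Fc receptor for antibody, at 535 and 243 CPM (1.13). The complement gene C1qa was at 6326 and 3220 CPM (0.97, 0.86 to 1.08). Of the 15 genes of the disease-associated microglia list, which overlaps the lysosomal one, 9 were higher and 0 lower, against 18.1% and 16.1% of all genes. Their median was 0.92 (0.66 unmixed, 0.71 in microglia). The higher genes include the chemokine Ccl6 (174 CPM in EMF_AuNPs and 60.8 CPM in Control members), Ctsd, cathepsin D (1.08), Ctsb, cathepsin B (0.97) and Axl, a receptor for dying cells (0.96). In microglia Axl stood at 1.88, Ctsb at 0.38, Ctsd at 0.10 and Ccl6 at -1.54. Among members with at least 1% class II, a view added after the data were seen, the lysosomal median was 0.57 and the disease-associated median 0.48.

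Chemokines and receptors gave 9 higher and 2 lower of 16, against 18.1% and 16.1% of all genes. The median log2 ratio was 1.30, 0.81 unmixed and -0.57 in microglia. Over the 15 genes with at least 30 UMIs in unmixed members it was 0.67. Only 7 of the 16 genes have at least 100 UMIs, and their median was -0.27. Those with at least 100 UMIs differed in direction. Ccl12, a monocyte attractant of mice, was at 468 CPM in EMF_AuNPs and 218 CPM in Control members (1.10, and 0.67 unmixed). Ccl3 was at 812 CPM in EMF_AuNPs and 733 CPM in Control members (0.15, -0.12 to 0.42, and -0.40 unmixed), Ccl4 at 713 and 1073 CPM (-0.59, -0.85 to -0.33), and Cxcl16 at 262 and 315 CPM (-0.27, -0.73 to 0.18). Cxcl2, which attracts neutrophils, was at 317 and 581 CPM (-0.87), with 37.6% of its UMIs in 1 member. Ccl3, Ccl4, Cxcl16 and Cxcl2 were picked after their values were seen. Ccl9, another such attractant, was at 127 CPM in EMF_AuNPs and 38.7 CPM in Control members (1.69, 0.77 to 2.73). Ccr2 had 38 UMIs in EMF_AuNPs (151 CPM) and 17 in Control members (47.0 CPM), a log2 ratio of 1.66 (0.82 to 2.60).

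Of 8 interferon response genes 1 was higher and 1 lower, near the 18.1% and 16.1% of all genes, with a median of 0.44 (0.20 unmixed, 0.53 in microglia). Over the 5 genes with at least 30 UMIs in unmixed members the median was 0.007. Irf1, an interferon-induced transcription factor, had 8 UMIs in EMF_AuNPs and 28 in Control members (-1.26, -2.63 to -0.12), Lgals3bp was at 0.65 and Ifitm3, an antiviral membrane protein, at 0.53. In microglia Ifitm3 stood at 0.98, Lgals3bp at 0.23 and Irf1 at -0.03. Of 9 cytokine and NF-kB feedback genes 3 were higher and 1 lower, against 18.1% and 16.1% of all genes. Their median was 0.23 and -0.11 unmixed. Rel, an NF-kB subunit, had 7 and 26 UMIs (-1.34), Tlr2, a receptor for bacterial lipoproteins, was at 0.82 and Nfkbiz at 0.81, and at 0.62 and 0.32 unmixed. Il1b, the cytokine interleukin-1 beta, which was picked after its values were seen, was at 543 CPM in 20 EMF_AuNPs members and 525 CPM in 36 Control members. Immediate early and dissociation genes gave 5 higher and 3 lower of 18, against 18.1% and 16.1% of all genes. Their median was 0.00 and -0.29 unmixed. Atf3, a stress-induced transcription factor, was at 392 and 727 CPM (-0.89, -1.24 to -0.55), and Zfp36, which destabilises cytokine mRNA, at 388 and 169 CPM (1.20, 0.73 to 1.69). The proliferation list had 1 gene with enough UMIs, Stmn1, at -0.63. Mki67 and Top2a of dividing cells had 0 UMIs in EMF_AuNPs, and 13 UMIs in 2 and 20 UMIs in 3 Control members.

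**Figure D5:**
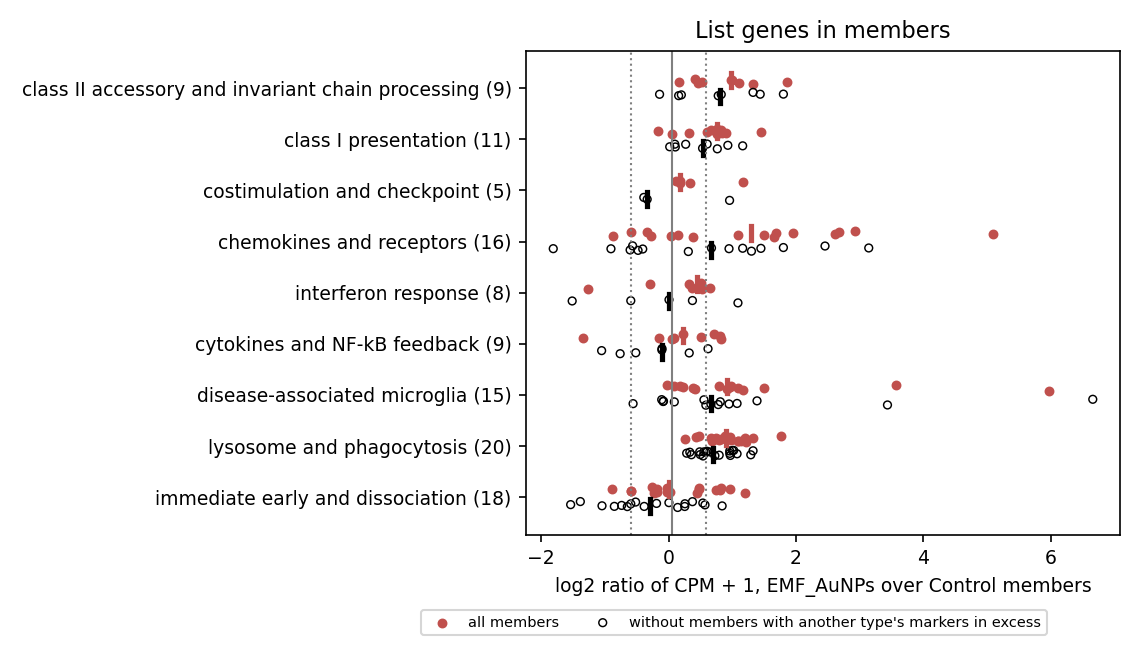
Log2 ratio of CPM + 1, EMF_AuNPs over Control members, for each tested gene of 9 function lists (number of genes in brackets), with filled points for all members and open circles for members without another type's markers, and bars at the medians. Open circles and their medians cover only genes with at least 30 UMIs over those members. The solid line is the median of all genes (0.05) and dotted lines are 1.5-fold. The lysosomal genes lie right of 0 in both views, while the chemokine list spreads on both sides.

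Set against microglia of the same library, members were 1.5-fold or more higher in both libraries for 299 genes (10.3%) and lower for 236 (8.17%). All 8 tested microglial genes were lower, as were 12 of 20 lysosomal genes, while 6 of 8 interferon and 9 of 16 chemokine genes were higher. These contrasts follow partly from the choice of the members and of the gate, and only genes outside the rule are described. The microglia gate needed at least 3 microglial markers and at most 1 border macrophage marker. Mrc1 and Pf4 are border macrophage markers, so their place below follows partly from that gate. The 12 genes farthest above microglia were Plbd1, Mrc1, Pf4, Clec4b1, Mgl2, Clec12a, Ciita, Ccl7, Rab7b, AI607873, Wfdc17 and Ccr2. Plbd1, a phospholipase B-like protein, had 23 UMIs in EMF_AuNPs and 25 in Control members and 0 in microglia of either, so that it was at least 8.88-fold and at least 47.3-fold higher. Clec12a, an inhibitory lectin of myeloid cells, was at 174 CPM in EMF_AuNPs and 102 CPM in Control members, at least 17.0-fold higher than in EMF_AuNPs microglia and 70.0-fold (22.2 to 355) higher than in Control microglia, where it had 3 UMIs. Mgl2 was 57.9-fold (9.93 to 2333) higher in EMF_AuNPs, where microglia had 1 UMI, and at least 140-fold higher in Control. Wfdc17, a secreted protein of macrophages, was 17.6-fold higher in EMF_AuNPs and 127-fold in Control. Outside the naming rule, and picked after their values were seen, Il1b was 79.4-fold (21.6 to 662) and 83.0-fold (47.4 to 159) higher than in microglia, and Cd52 3.46-fold and 3.81-fold.

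Set against border macrophages, 382 genes (13.2%) were higher and 195 (6.75%) lower in both libraries, but that gate held only 47341 UMIs in EMF_AuNPs and 82394 in Control. The limit of a gene at 0 UMIs there was 63.4 CPM in EMF_AuNPs and 36.4 CPM in Control. The 8 genes named by the rule, Plbd1, Wdr1, Runx3, Scimp, Clec4b1, Sema6a, Ccr2 and Atp6v0a2, were all at 0 UMIs in the gate of both libraries. Only Ccr2 was at least 2-fold higher in EMF_AuNPs by that limit (2.38-fold), and only Runx3, a transcription factor of dendritic cells and lymphocytes, in Control (2.51-fold). Larger border macrophage sets, 88 EMF_AuNPs and 180 Control barcodes taken by marker excess, were added after the data were seen. In these, Ccr2 and Runx3 were at 0 UMIs in both libraries, against 151 and 51.5 CPM in EMF_AuNPs and 47.0 and 91.2 CPM in Control members. Clec4b1, a lectin of dendritic cells and macrophages, was 6.51-fold (1.51 to 58.7) higher in EMF_AuNPs and 9.54-fold (2.28 to 84.8) in Control members. For Wdr1, Sema6a and Atp6v0a2 the intervals took in a ratio of 1 in both libraries. With these sets 152 genes were higher in members of both libraries. Cd83, which marks activated dendritic and B cells and holds class II at the surface, was 6.36-fold (3.16 to 14.5) and 3.46-fold (2.14 to 5.78) higher in members, and Cd52 was 4.45-fold and 8.61-fold higher, both picked after their values were seen. Mrc1, which was among the markers that chose these sets, was lower in members, at 0.322-fold (0.244 to 0.421) in EMF_AuNPs and 0.164-fold (0.126 to 0.210) in Control. Lyz2 was at 0.958-fold and 0.776-fold of the border macrophage level.

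Several genes came from few members and were kept out of the named genes for it; they are given as picked after their values were seen. Spp1, osteopontin, had 323 UMIs in 5 EMF_AuNPs members, of which 1 held 81.4%, and 7 UMIs in 4 Control members. Lpl, lipoprotein lipase, had 69 UMIs in 9 EMF_AuNPs and 8 in 6 Control members, and Cst7, cystatin F, 20 in 4 and 1 in 1. The chemokine Ccl5 had 28 UMIs in 2 EMF_AuNPs and 6 in 3 Control members, and Ccl8 32 in 4 and 1 in 1. Ccl22 and Ccl17, which dendritic cells make to attract T cells, had 11 and 1 UMIs in EMF_AuNPs and 4 and 12 in Control members.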

How the data were processed

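Single-cell RNA was measured in 1 EMF_AuNPs and 1 Control library of mouse hippocampus. The deposited matrices hold whole-number UMI counts per gene and barcode. The submitters' processing notes name Cell Ranger 3.0.2, STAR (version not given in the sources used here) and the mm10 build. They hold 24130 gene symbols and 0 mitochondrially encoded genes, so no filter on mitochondrial share was possible, and no other filter on cells was added. Depth was 19544686 UMIs in EMF_AuNPs and 51091452 in Control.

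The members and gene lists were chosen with earlier results of these data known. Members' counts were summed per library and scaled to CPM over all UMIs. Log2 ratios had 1 CPM added, and genes needed at least 30 UMIs over the members. Levels have exact Poisson, shares exact Clopper-Pearson, differences of shares Newcombe and ratios exact conditional binomial intervals, at 95%. A level of 0 was bounded by 3 counts per gate and library. Gates needed at least 3 markers (4 for types other than myeloid cells), and the microglia gate at most 1 border macrophage marker. Because 3 red blood cell genes are in the matrices, that gate was set at over 50% of UMIs instead. Doublets were called with simulated doublets and nearest neighbours and were marked, not removed. In EMF_AuNPs the caller marked 1.67% of barcodes. The ratio step and the doublet caller were tested on simulated data.

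Named genes needed at least 10 members with a UMI, no member holding over 25% of UMIs, and in members at least 20% of the level of the highest gate. Among these, the 8 highest and 8 lowest past 1.5-fold with an interval leaving out 0 were named, the 12 farthest over microglia, the 8 farthest over border macrophages, and up to 4 per function list; some genes that met this rule are not reported here. Alternatives were another class II sum, depth floors, thinning, doublet removal, other denominators, marker minimums, UMI minimums, added CPM and scalings. Those on members with another type's markers, the 1% class II share, the microglia list set aside and gates by marker excess were chosen after seeing the data. Promoter windows came from RefSeq (GRCm38.p6). Python 3.11.15, numpy 2.4.6, scipy 1.17.1, pandas 2.3.3, scikit-learn 1.9.0, scikit-image 0.26.0 and matplotlib 3.10.9 were used.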

Additional observations from a re-analysis of the deposited data

How the results depend on the processing

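With 1 library per group no replicate could be left out. No paired analysis was possible because each group has 1 library and no replicate number is shared. The member share was higher in EMF_AuNPs under all alternatives run, by 1.81 to 2.57 times. With barcodes of at least 2 myeloid genes as the total it was 2.38% in EMF_AuNPs and 1.31% in Control, a difference of 1.07 points, and without members holding another type's markers the Control share was 0.278%. Microglial calls depended on depth and on the marker minimum: 56.7% of EMF_AuNPs and 30.7% of Control members at 4 markers, 56.8% of Control members at 2, and 22.03% and 18.3% after thinning. Border macrophage calls were 33.3% and 17.0% without the microglia list, and dendritic calls 0% and 1.22% after thinning.

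Genes higher and lower in EMF_AuNPs numbered 118 and 90 at 100 UMIs, 3594 and 4096 with no minimum, 170 and 210 without members with at least 3 microglial markers (which leaves 6 EMF_AuNPs and 41 Control members), 251 and 239 without mixed members, 303 and 224 at a class II share of 1% or more, and 94 and 84 after thinning. Fewer genes reach the minimum in most of these. Without doublet calls 549 were higher and 246 lower. Microglia with a Cd74 UMI were 1.32% in EMF_AuNPs and 1.45% in Control at 500 UMIs, and 5.73% and 3.58% without thinning. Genes higher than in border macrophages numbered 152 with gates by marker excess.

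Some directions reversed. Without mixed members Mrc1 stood at -0.10 and Ier3 at -0.11 (log2). Without members with at least 3 microglial markers Ctsl stood at -1.66, Nfkbiz at -2.04, Ctsd at -0.50, Dusp1 at -2.84, Cd9 at -2.11, Ctsz at -0.49 and Psap at -0.27, and Stmn1 at 0.68 (0.10 without doublet calls). The chemokine median was -0.27 at 100 UMIs, -1.72 without those members and -0.39 after thinning. The cause was not tested. Without those members the medians were also 0.01 for class II accessory, 0.39 for disease-associated and 0.56 for lysosomal genes. The limits of these data are 1 library per group, 60 EMF_AuNPs and 88 Control members, and markers of other cell types in members and of microglia in endothelial barcodes.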
